A study of Mus musculus with 8 samples.

Results

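The leukocyte integrins described here were 7 genes, Itgam, Itgax, Itgal, Itga4, Itgae, Itgb2 and Itgb7, chosen by symbol and all found among the 15047 genes of the RNA-Seq of mouse pancreas. The tissue came from 8 male mice, 3 C57BL/6 WT mice on low-fat diet (LFD), 3 C57BL/6 WT mice on high-fat diet (HFD) and 2 C57BL/6J ob/ob mice, which lack leptin and ate a standard diet. By the study's methods the mice of all 3 groups were assigned to their chow at an age of 4 weeks, and the LFD and the HFD, the latter with 60% of its calories from fat, were fed for 10 weeks. The labels name the tissue only as pancreas. By the account of the study these mice had received neoplastic mT organoids, cultures grown from the pancreatic tumors of engineered mice that carry, among other alleles, a mutant Trp53 allele switched on by Pdx1-Cre, so that all 3 groups carried the same kind of transplant in a host with its own immune cells. No mouse without a transplant and no lean mouse on standard diet was analysed here, so the genotype and the diet of the ob/ob mice cannot be told apart. Each value was an rlog value of the authors, which is a log2 level corrected for library size, in which a difference of 1 is a doubling. Sequencing depth is unknown for every mouse. SDs given here are the spread between the mice of a group. SEs, intervals and p-values come from limma, a linear model whose variance is pooled over the 3 groups and moderated over all genes.

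Integrins are adhesion receptors made of an alpha and a beta chain, and a chain reaches the cell surface only with its partner. Itgb2 is the beta chain shared by Itgal (LFA-1, CD11a), which lymphocytes and other leukocytes use to hold on to ICAM proteins, by Itgam (Mac-1, CD11b), which is high on neutrophils, monocytes and macrophages and binds complement fragments and fibrinogen, and by Itgax (CD11c), which is high on dendritic cells and many tissue macrophages. Itgb7 pairs with Itga4, giving the receptor for MAdCAM on gut vessels, or with Itgae (CD103), which holds T cells and some dendritic cells to E-cadherin of epithelium. Itga4 also pairs with Itgb1, giving a receptor for VCAM and fibronectin. In tumors of the pancreas, cells with Itgam are known as a large part of the infiltrate.

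Itgam, Itgax and Itgal lie on chromosome 7 (GRCm38, Gencode M21). Itgam (chr7:128062640-128118491, 30 exons) was followed by Itgax (chr7:128129547-128150657, 30 exons) after 11055 bases, both on the plus strand, and Itgad, a further partner of Itgb2, began 3718 bases after Itgax. Itgal (chr7:127296260-127335138, 31 exons) ended 727501 bases before Itgam. Itga4 (chr2:79255426-79333123, 28 exons), Itgae (chr11:73090583-73147446, 31 exons), Itgb2 (chr10:77530252-77565708, 16 exons) and Itgb7 (chr15:102215995-102231944, minus strand, 15 exons) lay on other chromosomes. The promoters of Itgam and Itgax are shown because these neighbours had the largest differences between obese and LFD mice. RefSeq promoters of 250 bases before to 50 after the start site (GRCm38.p6) matched 4 of the 7 genes. They were searched on both strands for GAGGAA (core of a PU.1 site), TGTGGT (core of a RUNX site), GGGCGG (an Sp1 box) and TATAAA, and capitals mark the matches, none of which overlapped another. The promoter of Itgam is chr7:128062390-128062689 and that of Itgax is chr7:128129300-128129599, both printed 5′ to 3′ on the plus strand.
Itgam: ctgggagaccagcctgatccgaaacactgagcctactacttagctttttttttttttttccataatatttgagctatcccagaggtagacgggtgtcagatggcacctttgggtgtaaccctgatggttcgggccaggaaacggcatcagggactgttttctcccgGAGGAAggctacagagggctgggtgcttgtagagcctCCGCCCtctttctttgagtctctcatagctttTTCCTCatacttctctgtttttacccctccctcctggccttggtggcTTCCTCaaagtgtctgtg
Itgax: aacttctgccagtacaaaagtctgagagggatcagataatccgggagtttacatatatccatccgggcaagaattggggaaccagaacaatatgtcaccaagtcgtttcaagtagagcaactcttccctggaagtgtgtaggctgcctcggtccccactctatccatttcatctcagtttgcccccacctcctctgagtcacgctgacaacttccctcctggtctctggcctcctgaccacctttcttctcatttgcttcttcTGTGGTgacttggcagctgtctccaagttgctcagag
The Itgam promoter held GAGGAA at -84 from the start site, its reverse complement TTCCTC at -15 and 32, and CCGCCC, the reverse complement of GGGCGG, at -47. The Itgax promoter held TGTGGT at 13 and none of the other 3 motifs. TTCCTC also stood at 2 in the Itgb7 promoter, and the Itga4 promoter held ACCACA at -60 and GGGCGG at -114. Over all 32851 promoters of the same length, 28.3% held GAGGAA, 16.8% TGTGGT, 35.7% GGGCGG and 13.6% TATAAA on either strand, so matches are common, and a match is a description only.

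Some mice stood apart from their group. Acinar genes, which encode the digestive enzymes of the exocrine pancreas, had a mean rlog value of 19.0, 19.2 and 19.5 in LFD replicates 1 to 3, of 19.4, 17.3 and 15.3 in HFD replicates 1 to 3 and of 18.7 and 15.7 in ob/ob replicates 1 and 2. The labelled tissue was thus visible in every mouse, and HFD replicate 1 had the acinar level of the LFD mice. The mean of 15 pan-leukocyte genes, which nearly all white blood cells express, was 7.92, 8.35 and 7.39 in LFD, 8.05, 8.84 and 8.89 in HFD and 8.58 and 9.11 in ob/ob mice. In HFD replicate 1 it was below LFD replicate 2. LFD replicate 2 also had the highest mean of the B cell, T cell and lymphoid tissue genes among the 8 mice, at 6.10, 4.99 and 5.71. The differences of the integrin genes are therefore also given below without single mice, these among them. In bulk tissue, fewer cells of a type and less RNA per cell cannot be told apart.

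All 7 integrin genes had a higher mean in HFD than in LFD mice and in ob/ob than in LFD mice, where 52.4% and 53.1% of all genes did, and so also in the mean of HFD and ob/ob, called obese below (53.5% of all genes). The median of the 7 differences was 0.81 in HFD and 1.02 in ob/ob mice, against 0.03 and 0.04 over all genes. No integrin gene passed an adjusted p-value of 0.05 in any of the 4 comparisons by limma with Benjamini-Hochberg adjustment over all genes, and neither did any other gene of the table (0% called). At an unadjusted p under 0.05, 4 of the 7 were higher in HFD (11.5% of all genes), 6 of the 7 in ob/ob (11.6%) and 5 of the 7 in obese against LFD (14.5%). Both obese groups were compared with the same 3 LFD mice. Every HFD mouse was above every LFD mouse for Itgam, Itgax and Itgae (12.9% of all genes), and both ob/ob mice were above every LFD mouse for these 3 and for Itga4 and Itgb7 (24.1%). Itgam, Itgax and Itgae were thus the 3 genes whose 5 obese mice did not overlap with LFD, as was seen for 9.4% of all genes.

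**Figure D1:**
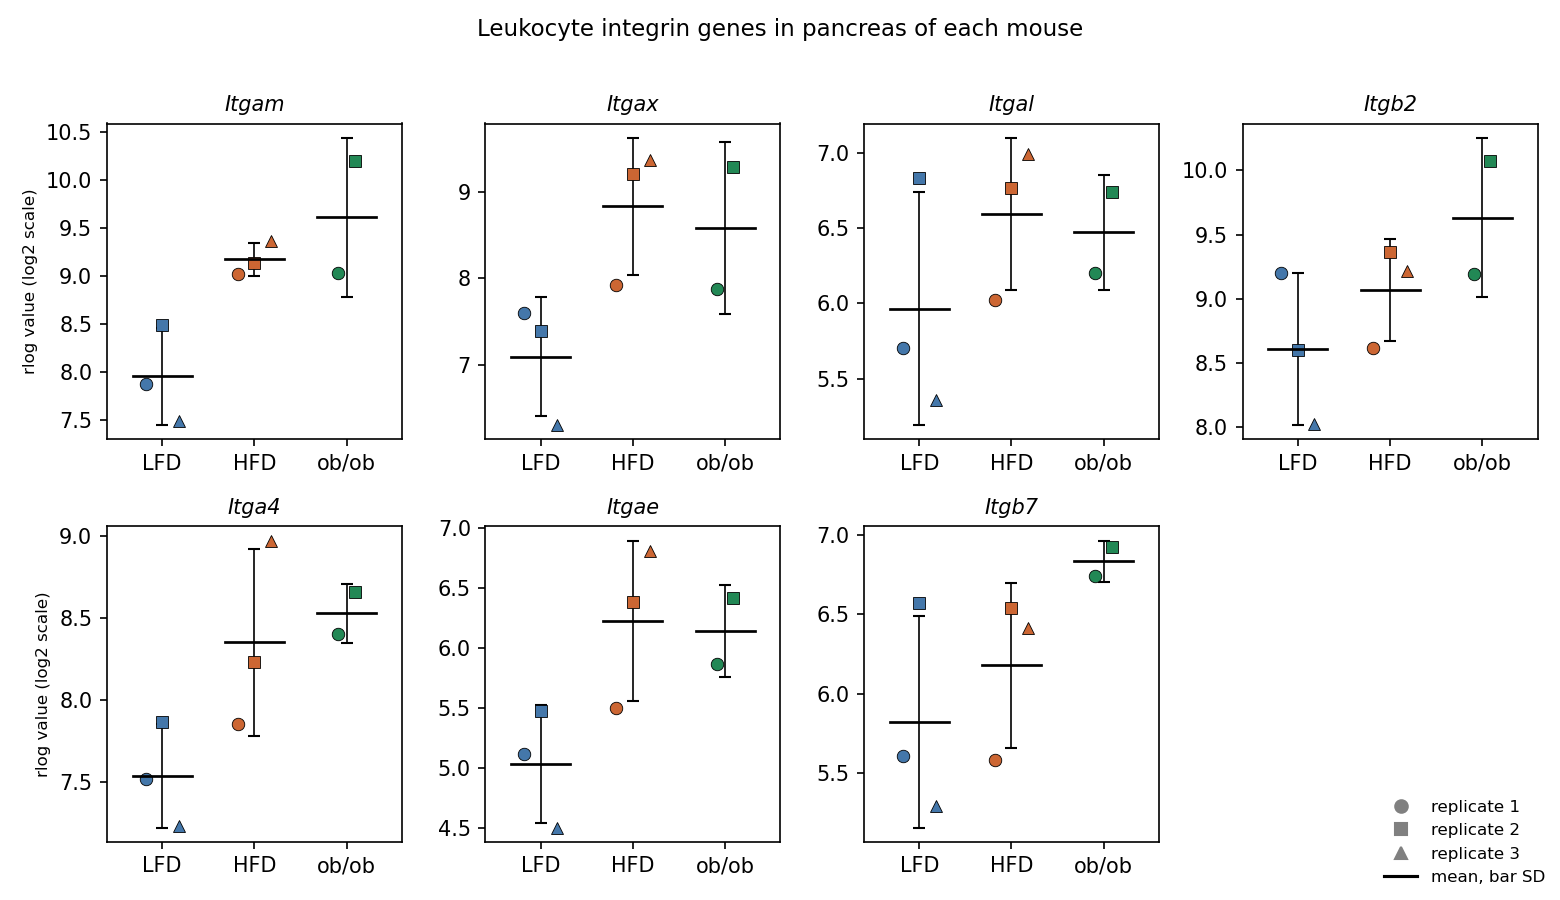
Level of each of the 7 integrin genes (rlog value, log2 scale) in the 3 LFD, 3 HFD and 2 ob/ob mice, with points for single mice, lines for group means and bars for the SD. Itgam, Itgax and Itgae show all 5 obese mice above the 3 LFD mice, whereas the groups overlap for Itgal and Itgb2.

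Itgam, the alpha chain of Mac-1, was 7.87, 8.49 and 7.49 in LFD mice, 9.02, 9.13 and 9.37 in HFD mice and 9.03 and 10.2 in ob/ob mice. The groups did not overlap with LFD, and ob/ob replicate 2 was the highest mouse. The LFD mean of Itgam was 7.95 ± 0.505 (SD, n = 3), the HFD mean 9.17 ± 0.177 (SD, n = 3) and the ob/ob mean 9.61 ± 0.827 (SD, n = 2). The difference from LFD was 1.22 in HFD (SE 0.34, unadjusted p = 0.00628, limma adjusted p = 0.180) and 1.66 in ob/ob mice (SE 0.38, unadjusted p = 0.00201, adjusted p = 0.168). Against LFD the obese mean of Itgam was higher by 1.44 (SE 0.31, limma adjusted p = 0.0926), the lowest adjusted p of the 7 genes. The ob/ob difference of Itgam was 1.08 without ob/ob replicate 2 and 2.25 without ob/ob replicate 1.

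Itgax, the CD11c chain, was 7.59, 7.38 and 6.30 in LFD mice, 7.92, 9.21 and 9.37 in HFD mice and 7.87 and 9.29 in ob/ob mice. HFD replicate 1 and ob/ob replicate 1 lay closest to the LFD mice, by 0.28 at the least, and the other obese mice lay more than 1 above every LFD mouse. The difference from LFD was 1.74 in HFD (SE 0.52, unadjusted p = 0.00916, limma adjusted p = 0.183), the largest of the 7 genes in that comparison, and 1.49 in ob/ob mice (SE 0.58, unadjusted p = 0.0319, adjusted p = 0.242). The latter was 0.78 without ob/ob replicate 2 (unadjusted p = 0.269) and 2.20 without ob/ob replicate 1. Itgax had the largest SD of the 7 genes among HFD mice (0.794) and among ob/ob mice (0.999).

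Itgal, the alpha chain of LFA-1, was 5.70, 6.84 and 5.36 in LFD mice, 6.03, 6.77 and 6.99 in HFD mice and 6.20 and 6.74 in ob/ob mice. LFD replicate 2 was above 4 of the 5 obese mice, and the other LFD mice were below all of them. The difference was 0.63 in HFD (95% interval -0.34 to 1.60, limma adjusted p = 0.415) and 0.51 in ob/ob mice (95% interval -0.58 to 1.59, adjusted p = 0.553), so Itgal was not shown to differ with all mice. Without LFD replicate 2 it was higher by 1.07 in HFD (unadjusted p = 0.0225, limma adjusted p = 0.344) and by 0.94 in ob/ob mice (unadjusted p = 0.0518), and without LFD replicate 3 by 0.33 and 0.20. The ob/ob difference of Itgal was 0.24 without ob/ob replicate 2 and 0.78 without ob/ob replicate 1.

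Itgb2, the beta chain that all 3 of these alpha chains need, was 9.20, 8.61 and 8.02 in LFD mice, 8.62, 9.36 and 9.22 in HFD mice and 9.19 and 10.1 in ob/ob mice. LFD replicate 1 was above HFD replicate 1 and ob/ob replicate 1, so the groups overlapped. The difference from LFD was 0.45 in HFD (SE 0.36, unadjusted p = 0.234, limma adjusted p = 0.478) and 1.02 in ob/ob mice (SE 0.40, unadjusted p = 0.0313, adjusted p = 0.240). In HFD the difference of Itgb2 was 0.75 without LFD replicate 1 and 0.16 without LFD replicate 3, and in ob/ob mice it was 0.58 without ob/ob replicate 2 (unadjusted p = 0.245).

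Itga4, the alpha chain shared by the receptors for MAdCAM and VCAM, was 7.52, 7.87 and 7.23 in LFD mice, 7.85, 8.23 and 8.97 in HFD mice and 8.40 and 8.66 in ob/ob mice. All obese mice but HFD replicate 1, which was at the level of LFD replicate 2, lay above the LFD mice. The difference was 0.81 in HFD (SE 0.30, unadjusted p = 0.0249, limma adjusted p = 0.215) and 0.99 in ob/ob mice (SE 0.33, unadjusted p = 0.0168, adjusted p = 0.216). Without HFD replicate 3, the highest mouse, Itga4 was higher by 0.50 in HFD (unadjusted p = 0.0802).

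Itgae, the CD103 chain, was 5.11, 5.47 and 4.50 in LFD mice, 5.50, 6.38 and 6.81 in HFD mice and 5.87 and 6.41 in ob/ob mice. All 5 obese mice were above the LFD mice, HFD replicate 1 by 0.02 only. The difference was 1.20 in HFD (SE 0.40, unadjusted p = 0.0162, limma adjusted p = 0.200) and 1.11 in ob/ob mice (SE 0.45, unadjusted p = 0.0368, adjusted p = 0.249).

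Itgb7, the partner of both, was 5.61, 6.57 and 5.29 in LFD mice, 5.58, 6.54 and 6.42 in HFD mice and 6.74 and 6.93 in ob/ob mice. The HFD mice lay within the LFD range and both ob/ob mice above it. The difference was 0.36 in HFD (SE 0.39, unadjusted p = 0.385, limma adjusted p = 0.616) and 1.01 in ob/ob mice (SE 0.43, unadjusted p = 0.0463, adjusted p = 0.262). The HFD difference of Itgb7 was 0.73 without LFD replicate 2, 0.65 without HFD replicate 1, 0.18 without HFD replicate 2 and 0.0894 without LFD replicate 3, and the ob/ob difference was 1.38 without LFD replicate 2 (unadjusted p = 0.00851).

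**Figure D2:**
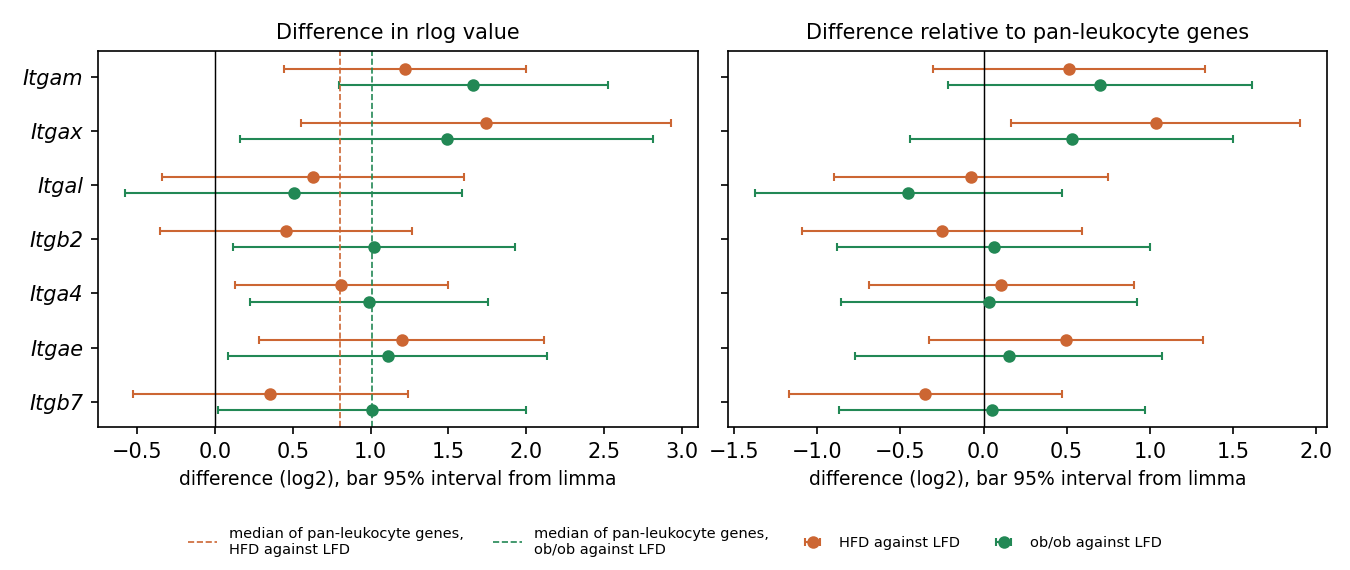
Difference in rlog value (log2 scale) of each integrin gene in HFD and in ob/ob mice against LFD mice, on the deposited scale and relative to the pan-leukocyte genes, with 95% intervals from limma and dashed lines for the median of the pan-leukocyte genes. On the deposited scale all differences are above 0, and relative to the pan-leukocyte genes the interval of Itgax in HFD mice, 0.17 to 1.91, is the one that lies above 0.

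These counts rested on single mice. Without HFD replicate 1, limma called Itgam, Itgax, Itga4 and Itgae in HFD against LFD (adjusted p = 0.0489, 0.0228, 0.0358 and 0.0261), among 2812 called of all 15047 genes. The same 4 genes were called in obese against LFD (adjusted p = 0.0194, 0.0194, 0.0217 and 0.0215), among 3326 called genes. Without ob/ob replicate 1, Itgam was called in obese against LFD (limma adjusted p = 0.0444), among 476 called genes. Without LFD replicate 2, the integrin genes with an unadjusted p under 0.05 were 5 in HFD, 5 in ob/ob and 6 in the obese comparison, where 9.23%, 9.94% and 11.7% of all genes were higher at that p. Without that mouse Itgam was higher by 1.49 in HFD and 1.93 in ob/ob mice, Itgax by 1.89 and 1.63, Itga4 by 0.98 and 1.15 and Itgae by 1.42 and 1.33. The counts at an unadjusted p were 2, 1 and 3 without LFD replicate 3 (6.52%, 7.01% and 8.44% of all genes), 2 in HFD without HFD replicate 3 (6.89%) and 1 in ob/ob mice without ob/ob replicate 2 (4.03%). When the acinar mean of each mouse entered the fit as a covariate, the integrin genes with an unadjusted p under 0.05 were Itgam and Itgax in HFD, higher by 0.84 and 0.95, Itgam alone in ob/ob, higher by 1.25, and Itgam and Itgax in the obese comparison, where 6.37%, 6.73% and 7.04% of all genes were higher at that p. With this covariate the differences in HFD and ob/ob mice were 0.20 and 0.0425 for Itgal, 0.0373 and 0.57 for Itgb2, 0.0462 and 0.67 for Itgb7, 0.66 and 0.53 for Itgae and 0.41 and 0.56 for Itga4, and Itgax was higher by 0.625 in ob/ob mice (unadjusted p = 0.137).

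HFD and ob/ob mice were then set against each other. None of the 7 integrin genes had an unadjusted p under 0.05 in limma (2.28% of all genes were higher and 1.63% lower in ob/ob). Means were higher in ob/ob mice for 4 of the 7, Itgam, Itga4, Itgb2 and Itgb7 (51.7% of all genes), and lower for Itgax, Itgal and Itgae. Leaving out single mice gave 3 to 7 genes with a higher mean. The sign turned for Itgam, Itgax, Itgal, Itga4 and Itgae. The intervals were wide, with -0.43 to 1.31 for Itgam, -1.58 to 1.07 for Itgax and -0.33 to 1.64 for Itgb7, and so left room for a doubling in either direction for Itgax. Without ob/ob replicate 1 the difference of Itgam was 1.02 (limma unadjusted p = 0.0260, adjusted p = 0.584).

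To see how the integrin genes differed beside leukocyte genes in general, the mean of the pan-leukocyte genes was subtracted from every gene in each mouse. The pan-leukocyte genes themselves had a median difference of 0.80 in HFD and 1.01 in ob/ob mice, close to the medians of the integrin genes, and 14 of 15 were higher in the obese mean (53.5% of all genes), 11 of them at an unadjusted p under 0.05 (14.5%). The other one, Cytip, was lower in the obese mean by a difference of -0.47 (limma unadjusted p = 0.0205, adjusted p = 0.145), where 10.9% of all genes were lower at that p. Ptprc (CD45), the surface phosphatase of all leukocytes, was higher by 0.95 in HFD (SE 0.35, limma adjusted p = 0.215) and by 0.99 in ob/ob mice (SE 0.39, adjusted p = 0.245). By construction the median of all genes moved on this relative scale, to -0.68 in HFD and -0.92 in ob/ob mice. No integrin gene had an adjusted p under 0.05 there, where 0.0133% of all genes did in HFD, 0.00665% in ob/ob, 0.0199% in the obese comparison and 0% in ob/ob against HFD. Itgax in HFD mice was the one integrin gene with an unadjusted p under 0.05 in any of the 4 comparisons. In either direction such a p was reached by 25.1% of all genes in HFD, 37.2% in ob/ob, 44.2% in the obese comparison and 2.48% in ob/ob against HFD, and the genes higher at that p were 1.04%, 0.498%, 0.804% and 0.346%. Relative Itgax was -0.32, -0.97 and -1.09 in LFD, -0.13, 0.37 and 0.48 in HFD and -0.71 and 0.18 in ob/ob mice, with ob/ob replicate 1 inside the LFD range. In HFD it was higher by 1.04 (SE 0.41, unadjusted p = 0.0227, limma adjusted p = 0.184). In ob/ob mice the relative difference of Itgax was 0.53 (95% interval -0.44 to 1.50), with 0.0861 without ob/ob replicate 2, 0.97 without ob/ob replicate 1 and 0.0915 with the acinar covariate, and a difference between ob/ob and HFD was not shown (95% interval -1.48 to 0.47, limma adjusted p = 0.999). Itgam was higher by 0.52 in HFD (limma unadjusted p = 0.198) and by 0.70 in ob/ob mice (unadjusted p = 0.123), the former 0.32 without HFD replicate 1 and the latter 0.38 without ob/ob replicate 2. Per mouse, the relative level of Itgam was -0.05, 0.14 and 0.10 in LFD, 0.97, 0.30 and 0.48 in HFD and 0.45 and 1.09 in ob/ob mice, so the obese mice again did not overlap with LFD. Relative Itgae was -2.81, -2.88 and -2.88 in LFD, -2.55, -2.45 and -2.08 in HFD and -2.71 and -2.69 in ob/ob mice, which were also separate, though by 0.09 at the least. Every obese mouse was above every LFD mouse on this scale for 0.778% of all genes. Relative differences of Itga4 were 0.11 and 0.03, those of Itgb2 -0.25 and 0.06 and those of Itgb7 -0.35 and 0.05 in HFD and ob/ob mice. Leaving out single mice turned the sign of Itga4 and Itgb2 in both comparisons and of Itgb7 in ob/ob mice. Relative Itgal differed by -0.08 and -0.45, which became 0.13 and -0.25 without LFD replicate 2. Without HFD replicate 1 relative Itgax was higher by 1.22 in HFD (limma adjusted p = 0.0284) and by 0.87 in the obese mean (adjusted p = 0.0457), among 5543 and 7587 called genes. Without LFD replicate 2 the HFD difference of relative Itgax was 0.95 (limma unadjusted p = 0.0561), and without LFD replicate 3, HFD replicate 2 or HFD replicate 3 it was 0.89, 0.97 and 0.92 (unadjusted p = 0.0608, 0.0746 and 0.0818). Against Ptprc alone, or with the acinar covariate, the HFD difference of Itgax was 0.79 and 0.63 (unadjusted p = 0.120 and 0.156), and no relative integrin gene had an unadjusted p under 0.05 in HFD mice.

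**Figure D3:**
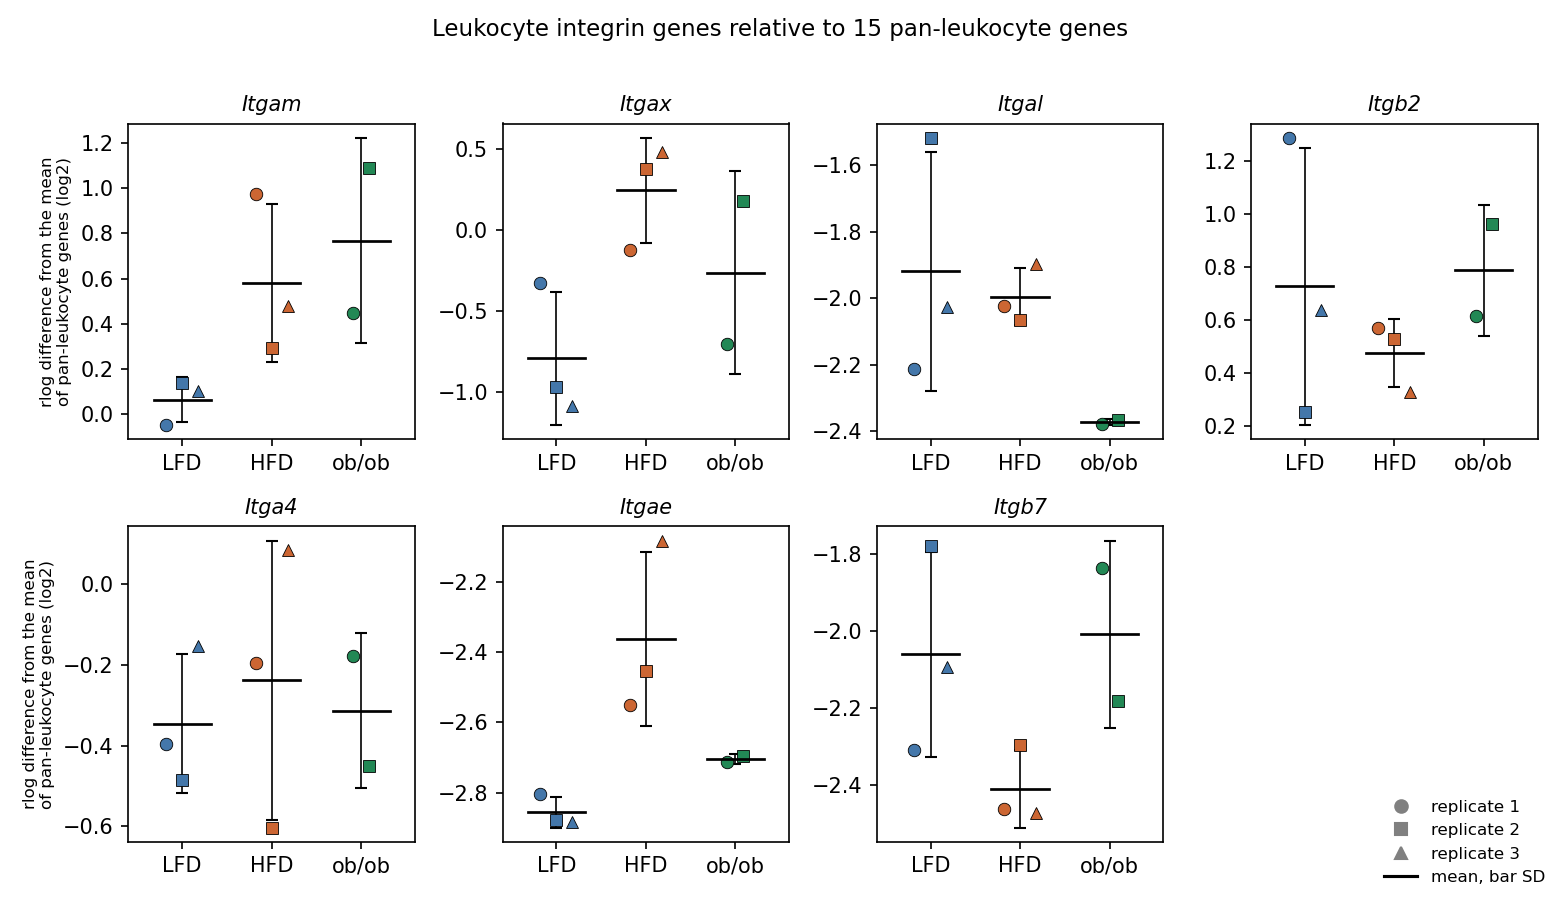
Level of each integrin gene minus the mean of 15 pan-leukocyte genes of the same mouse (log2 scale), with points for single mice, lines for group means and bars for the SD. Itgam and Itgae show all 5 obese mice above the 3 LFD mice, and Itgal, Itgb2 and Itgb7 show none.

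Differences between subunits of the same mouse cancel a scaling that all its genes share. They do not remove the shrinkage that rlog applies to genes with few reads. Itgam minus Itgal, a chain of myeloid cells against one that is prominent on lymphocytes, was 2.17, 1.66 and 2.13 in LFD mice, 2.99, 2.36 and 2.38 in HFD mice and 2.82 and 3.46 in ob/ob mice. All 5 obese mice were above the LFD mice, with 1.99 ± 0.286 (mean ± SD, n = 3), 2.58 ± 0.361 (mean ± SD, n = 3) and 3.14 ± 0.446 (mean ± SD, n = 2). Itgax minus its partner Itgb2 was -1.61, -1.22 and -1.72 in LFD, -0.69, -0.15 and 0.15 in HFD and -1.32 and -0.78 in ob/ob mice. All but ob/ob replicate 1 of the obese mice were above LFD for this pair. Itgam minus the same partner was -1.33, -0.12 and -0.53 in LFD, 0.40, -0.23 and 0.15 in HFD and -0.17 and 0.13 in ob/ob mice, with HFD replicate 2 and ob/ob replicate 1 inside the LFD range. Itgam minus Itgax was 0.28, 1.11 and 1.19 in LFD mice, and HFD replicates 2 and 3 lay below them at -0.08 and -0.00316, the other obese mice within their range. Itgae minus its partner Itgb7 was -0.50, -1.10 and -0.79 in LFD, -0.09, -0.16 and 0.39 in HFD and -0.88 and -0.51 in ob/ob mice, so the 3 HFD mice were above and both ob/ob mice within the LFD range. Itgal minus Itgb2 ranged from -3.50 to -1.77 in LFD, and all 5 obese mice lay within that range. Itga4 minus Itgb7 was at most 1.94 in LFD mice, and HFD replicates 1 and 3 lay above them at 2.27 and 2.56, the other 3 obese mice within the LFD range. These differences were not tested.

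**Figure D4:**
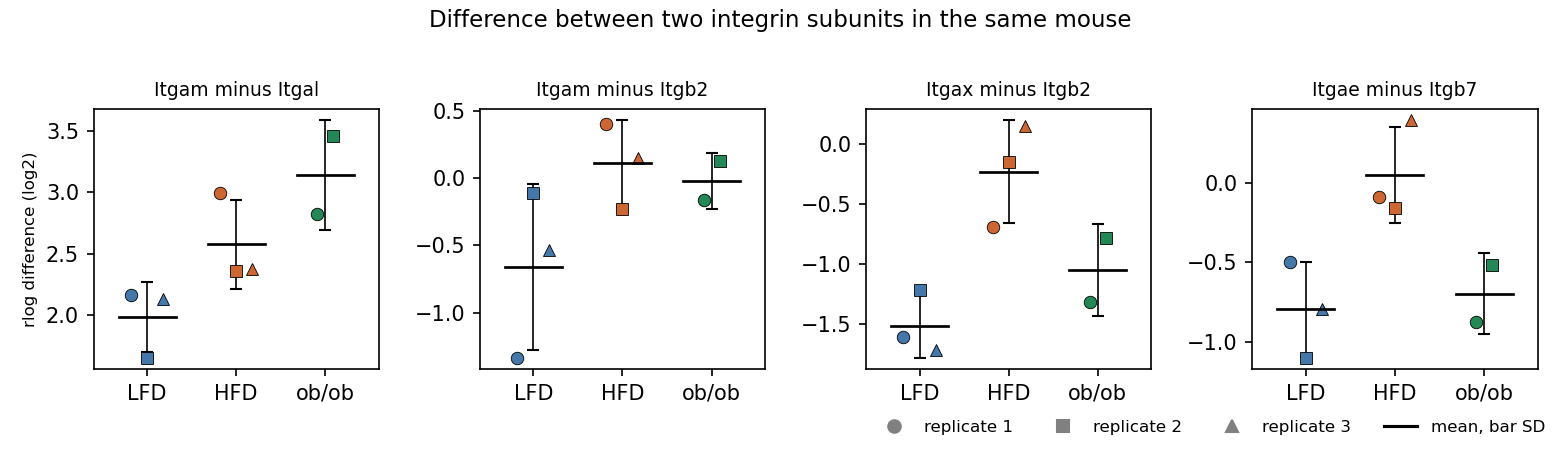
Difference in rlog value between pairs of integrin subunits in the same mouse (log2 scale), with points for single mice, lines for group means and bars for the SD. Itgam minus Itgal is above all LFD mice in 5 of 5 obese mice, and Itgae minus Itgb7 in the 3 HFD mice and in no ob/ob mouse.

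Levels were also compared between genes per kilobase of the longest coding transcript, on the linear scale. Per kilobase, Itgb2 had the highest level of the 7 genes in all 8 mice, and Itgam or Itgax the next. Itgam was second in 6 mice, and Itgax was second in HFD replicates 2 and 3. Itgal or Itgae had the lowest level per kilobase in each mouse. The sum of the Itgal, Itgam and Itgax levels per kilobase was 54.2%, 107% and 75.0% of the Itgb2 level in LFD mice, 139%, 129% and 164% in HFD mice and 93.1% and 118% in ob/ob mice, so every HFD mouse was above every LFD mouse and the ob/ob mice overlapped with LFD. Itgal made up 9.27%, 15.6% and 12.0% of that sum in LFD mice, 6.81%, 7.28% and 7.41% in HFD mice and 7.69% and 4.81% in ob/ob mice. All obese mice had a lower Itgal share than the LFD mice, with means of 12.3% ± 3.19 (SD, n = 3), 7.17% ± 0.315 (SD, n = 3) and 6.25% ± 2.03 (SD, n = 2).

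Itgb1 and Itgad are the other subunits that complete these receptors. Itgb1, the broad beta chain that Itga4 can use and that epithelial and stromal cells also express, was 11.5, 11.6 and 11.6 in LFD, 11.9, 12.6 and 12.3 in HFD and 12.0 and 12.5 in ob/ob mice. All 5 obese mice were above the LFD mice (9.4% of all genes), with the ob/ob mice inside the HFD range, and the obese mean was higher by 0.68 (SE 0.22, limma adjusted p = 0.128). Itgad, the neighbour of Itgax, had a low level of 2.38, 2.87 and 2.59 in LFD, 3.36, 2.90 and 4.91 in HFD and 4.21 and 4.16 in ob/ob mice. Its obese mean was higher by 1.34 (SE 0.43, limma adjusted p = 0.130).

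Ligands and counter-receptors of these integrins were measured for 12 of 16 listed genes. All 12 had a higher obese mean, with a median difference of 0.70, and 6 had an unadjusted p under 0.05 in limma but none an adjusted p under 0.05, where 53.5% of all genes had a higher obese mean and 14.5% were higher at that unadjusted p. The 6 were Fn1 (fibronectin), higher by 1.67, Spp1 (osteopontin), by 1.21, Vcam1, by 1.14, Madcam1, by 0.94, Thy1, which binds Itgam, by 0.88, and Icam1, the main ligand of Itgal and Itgam, by 0.85. Icam1 was 7.15, 7.59 and 6.69 in LFD, 7.28, 8.53 and 8.18 in HFD and 7.80 and 8.15 in ob/ob mice, with HFD replicate 1 inside the LFD range. Madcam1, the ligand of Itga4 with Itgb7, had a level of 4.20 at most. Cdh1 (E-cadherin), the ligand of Itgae, was 10.5, 10.5 and 10.3 in LFD, 10.6, 11.1 and 11.2 in HFD and 10.6 and 9.42 in ob/ob mice. It was lower by 0.98 in ob/ob than in HFD mice (SE 0.33, limma unadjusted p = 0.0169, adjusted p = 1.00), the only 1 of the 12 listed ligands with an unadjusted p under 0.05 there (1.63% of all genes lower and 2.28% higher), and ob/ob replicate 2 was the low mouse.

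Genes that switch integrins on or signal from them were all measured, 20 of 20. In the obese mean 15 of 20 were higher (53.5% of all genes), 12 at an unadjusted p under 0.05 (14.5%) and none at an adjusted p under 0.05. Among these 12 were Vav1, an exchange factor that is also one of the pan-leukocyte genes, with a difference of 1.15 (SE 0.33, limma adjusted p = 0.117), made of 0.94 in HFD and 1.36 in ob/ob mice, Fgr, a Src-family kinase of myeloid cells (1.11), Fermt3, the kindlin of blood cells that leukocyte integrins need for activation (1.09), Apbb1ip, the RIAM adaptor of Rap1 (0.96), Fyb (0.93), Syk (0.89), Rassf5 (0.83), Lyn (0.66), Rap1b (0.61), Cyth1 (0.60) and Skap2 (0.47). Tln1 (talin), which opens integrins in all cells, had the highest level of the list and a difference of 0.67 (limma adjusted p = 0.219). Between ob/ob and HFD mice none of the 20 had an unadjusted p under 0.05.

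Marker genes of the cells that carry these integrins were counted beside them. All 10 macrophage genes had a higher obese mean (53.5% of all genes), 9 at an unadjusted p under 0.05 (14.5%), with a median difference of 1.38. Their mean level was 8.66, 8.59 and 8.08 in LFD, 8.81, 9.71 and 9.42 in HFD and 9.71 and 10.3 in ob/ob mice, and Mrc1 was the most abundant. Adgre1 (F4/80) was higher by 1.57 (limma adjusted p = 0.0810), and C1qb and C1qc, chains of the complement protein C1q, by 1.52 and 1.40. Of 10 neutrophil genes 7 were measured, without Ly6g, Camp and Ngp, and all 7 were higher in the obese mean at an unadjusted p under 0.05, with a median difference of 1.45. Their mean was 5.0, 5.67 and 5.10 in LFD, 6.43, 7.36 and 7.70 in HFD and 6.55 and 6.24 in ob/ob mice, and S100a9 was the most abundant. S100a8 and S100a9, the chains of calprotectin, were higher by 1.99 and 1.93 and Mmp9, a gelatinase, by 1.63. All 7 were lower in ob/ob than in HFD mice (7263 of all 15047 genes), 2 of them at an unadjusted p under 0.05 (1.63% of all genes). All 10 macrophage genes were higher in that comparison (51.7% of all genes), by a median of 0.70. Of these, 2 had an unadjusted p under 0.05 in limma (2.28% of all genes were higher at that p). The 2 measured eosinophil genes of 4, Siglecf and Ccr3, had a mean of 3.75, 4.50 and 3.85 in LFD, 5.64, 5.49 and 5.85 in HFD and 4.86 and 4.46 in ob/ob mice. Of the 8 dendritic cell genes, which include Flt3, Zbtb46 and Xcr1, 6 were higher and 2 lower in the obese mean with none at an unadjusted p under 0.05, at a median of 0.40. The largest of these differences were 0.79 for Ccr7, 0.62 for Flt3 and -0.59 for Siglech. In HFD against LFD 6 were higher (52.4% of all genes), by a median of 0.55. Of these, 1 had an unadjusted p under 0.05 (11.5% of all genes), Batf3, higher by 0.81 (limma adjusted p = 0.204). In ob/ob mice the median was 0.12. Itgax is often used to mark these cells.

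Lymphocyte markers gave other values. T cell genes were higher in 9 of 11 by a median of 0.23, B cell genes were higher in 2 of 8 with a median of -0.45 and NK cell genes in 3 of 3 measured with a median of 0.17, and none had an unadjusted p under 0.05 in obese against LFD. The T cell mean was 3.64, 4.99 and 3.52 in LFD, 3.95, 4.19 and 4.37 in HFD and 4.18 and 4.49 in ob/ob mice, so LFD replicate 2 was the highest, as it was among LFD mice for Itgal, Itga4, Itgae, Itgb7 and Itgam. The B cell mean was 3.75, 6.10 and 3.58 in LFD, 3.75, 4.00 and 4.34 in HFD and 4.00 and 4.08 in ob/ob mice. That of lymphoid tissue genes was 4.16, 5.71 and 4.23 in LFD, 4.26, 4.50 and 4.61 in HFD and 4.15 and 4.24 in ob/ob mice. For both lists LFD replicate 2 was the only LFD mouse above the obese mice, so their negative medians rest on that mouse. Mast cell genes were higher in 1 of 5 measured (median -0.05), plasma cell genes in 1 of 4 (median -0.37) and lymphoid tissue genes in 1 of 7 (median -0.47). Among these, Sdc1, which epithelium also expresses, was higher by 1.04 and Derl3 and the chemokine gene Ccl21a differed by -2.06 and -0.89, each at an unadjusted p under 0.05 in limma (14.5% of all genes higher, 10.9% lower), and no mast cell gene reached that p. Derl3 was 10.1, 10.4 and 10.3 in LFD, 9.6, 8.1 and 6.8 in HFD and 9.6 and 7.0 in ob/ob mice. Its lowest values were in HFD replicate 3, ob/ob replicate 2 and HFD replicate 2, which also had the lowest acinar means. Its difference is therefore not read as one of plasma cells, and its source was not tested. All 16 acinar genes were lower in the obese mean, with a median difference of -2.0, with 1 at an unadjusted p under 0.05. The part of the macrophage, neutrophil and acinar genes in the integrin differences was not tested beyond the relative scale and the acinar covariate above.

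**Figure D5:**
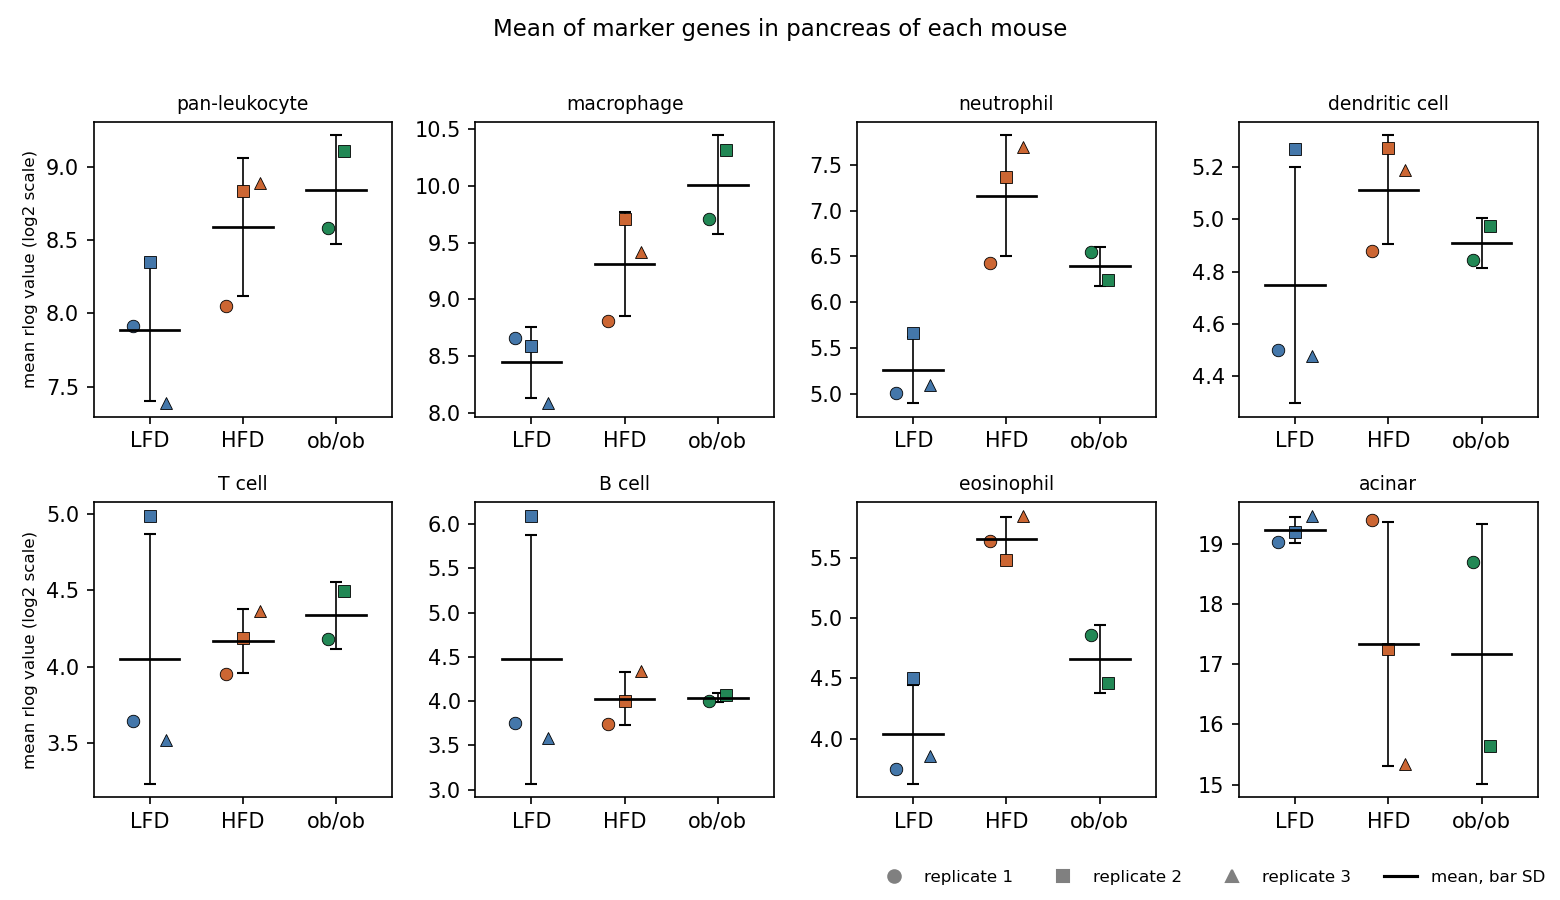
Mean rlog value (log2 scale) of 8 lists of marker genes in each mouse, with points for single mice, lines for group means and bars for the SD. The macrophage and neutrophil lists lie above all LFD mice in 5 of 5 obese mice, the B cell and T cell lists are highest in LFD replicate 2, and the eosinophil list holds 2 genes.

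Across the 8 mice, the integrin genes followed each other with a Pearson r from 0.566 (Itgal and Itgb2) to 0.963 (Itgax and Itgae), a description over mice that share group and tissue composition. Of the other genes of the table, those most like Itgam over the 8 mice were Nubp2 (r = 0.985), Tfe3, Atp8b4, Exoc2 and Dclk1 (r = 0.977). Most like Itgax were 9930111J21Rik2 (r = 0.992), Ptpre, Odf2l, Cttnbp2nl and Snx20 (r = 0.986). Itgal was followed most closely by Gemin8 (r = 0.972), Serpina3f, Bcl11b, Tap1 and D830030K20Rik (r = 0.955). For Itga4 these genes were Il15 (r = 0.993), Adra2a, Spsb1, Zfp407 and Mki67 (r = 0.980), and for Itgae they included Cap1 (r = 0.991), Csf2rb, Vash1 and Nhs (r = 0.985). Itgb2 was matched best by Atp6v1a (r = 0.989), Parp3, Fam171a2, Adgb and Sulf2 (r = 0.975), and Itgb7 by Sh3bp2 (r = 0.980), Slpi, Nkg7, Tnfrsf4 and Map3k8 (r = 0.970). No gene was named for more than 1 integrin gene.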

How the data were processed

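RNA-Seq of the pancreas of 8 mice was grouped by the diet or genotype in the sample labels. The authors used FastQC for read quality, Salmon 0.11.3 with the Gencode M18 transcripts of GRCm38, tximport for gene sums and rlog of DESeq2 1.22.2, and deposited the resulting log2 values, which carry a correction for library size. The filter behind the 15047 genes is not given in the sources used here. Rlog shrinks differences of genes with few reads. Salmon shares reads of similar or overlapping transcripts by probability, an uncertainty these values do not show. Counts were not analysed here, so no count test was run.

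Group differences were tested over all genes with limma 3.58.1 in R 4.3.3, with 3 group means, empirical Bayes moderation with a trend and Benjamini-Hochberg adjustment, on the deposited values and relative to 15 pan-leukocyte genes. The replicates are different animals. Named genes were the 7 integrin genes, Itgb1, Itgad, Ptprc, the 3 marker genes of each list with the largest obese difference, listed ligands and activation genes with an unadjusted p under 0.05, and the 5 genes most correlated with each integrin gene. Cdh1, Tln1, Cytip, Batf3 and the most abundant or defining markers (Mrc1, Zbtb46, Xcr1) were named outside this rule, after their values were seen. Other genes that the rule names, an activation gene and a correlated gene among them, are not reported here. The genes, lists and rules were chosen with earlier results of these data known. On simulated data for HFD against LFD over 15047 genes, 0%, 32%, 98% and 100% of genes changed by 2, 4, 8 and 16 residual SDs were called at an adjusted p under 0.05. There 50 genes were changed at each size, all others were unchanged and the noise was independent between genes. Differences that many genes share, as from tissue composition, were not simulated, so these shares are not the power of the study. Alternatives are described with their effects after this section.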

Additional observations from a re-analysis of the deposited data

How the results depend on the processing

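All 7 integrin genes kept a higher mean in HFD, ob/ob and obese mice than in LFD mice under every alternative run. These were no variance trend, fits on the compared groups alone, a minimum mean rlog of 5, median centring and quantile normalization. The replicate block, the acinar covariate and leaving out each mouse of the groups compared were also run. With the acinar covariate the limma differences were as little as 0.0373 (Itgb2 in HFD, unadjusted p = 0.907), 0.0462 (Itgb7 in HFD) and 0.0425 (Itgal in ob/ob). Without it they were 0.45, 0.36 and 0.51. Fits on the compared groups gave no separate value for obese against LFD, and median centring cannot move the relative values. The count with an unadjusted p under 0.05 became 2 (HFD), 1 (ob/ob) and 2 (obese) with the acinar covariate. From 6 in ob/ob it became 4 with quantile normalization (9.70% of all genes, without Itgae and Itgb7) and 5 with median centring (10%), and from 5 in obese it became 4 without the trend (14.3%), with a mean rlog of at least 5 (14.7%) and with median centring (12.1%), each without Itgb2. On the relative scale it became 0 in HFD with the acinar covariate or with Ptprc alone, and 1 in obese with a mean rlog of at least 5. Leaving out single mice of the groups compared gave 2 to 5 (HFD), 1 to 5 (ob/ob) and 3 to 6 (obese) at an unadjusted p. At an adjusted p it gave 0 to 4 in HFD and in obese. On the relative scale it gave 0 to 1 in HFD and 0 to 1 in obese, at an unadjusted and at an adjusted p. Where a group was left with 1 mouse, that mouse was assumed to vary like the others.

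Over all genes, the calls at an adjusted p under 0.05 (0 in each comparison as reported) became 1 (HFD) and 38 (ob/ob) with the compared groups alone, and 1 in each comparison but HFD with the acinar covariate. On the relative scale they moved from 2 (HFD), 1 (ob/ob) and 3 (obese) to 261 (HFD) and 2595 (ob/ob) with the compared groups alone, 1078, 1710 and 3726 with the replicate block, 15, 42 and 23 (and 142 from 0 in ob/ob against HFD) with the acinar covariate and 1198, 722 and 3847 with Ptprc alone. The filter, the fit without the trend and quantile normalization gave 0 to 6. No integrin gene was among the calls of these alternatives. Leaving out 1 mouse of any group gave 0 to 2812 (HFD), 0 to 89 (ob/ob) and 0 to 3326 (obese) on the deposited scale. On the relative scale it gave up to 5543 (HFD), 4605 (ob/ob), 28 (ob/ob against HFD) and 7587 (obese).

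Small differences turned sign. In ob/ob against HFD, leaving out mice gave -0.15 to 1.02 for Itgam, -0.96 to 0.45 for Itgax, -0.41 to 0.15 for Itgal, -0.0724 to 0.488 for Itga4 and -0.45 to 0.20 for Itgae. On the relative scale it gave in HFD -0.22 to 0.13 for Itgal, -0.0542 to 0.290 for Itga4 and -0.488 to 0.0293 for Itgb2, in ob/ob -0.10 to 0.17 for Itga4, -0.17 to 0.34 for Itgb2 and -0.12 to 0.22 for Itgb7, in obese -0.0111 to 0.165 for Itga4 and -0.33 to 0.19 for Itgb2, and in ob/ob against HFD -0.14 to 0.51 for Itgam and -0.258 to 0.0861 for Itga4. Relative ob/ob values were -0.11 (Itgae) and -0.14 (Itgb7) with quantile normalization and -0.00499 (Itgae) with the acinar covariate. Relative to Ptprc alone, Itga4 was at -0.13 in HFD, -0.00301 in ob/ob, -0.0683 in obese and 0.13 in ob/ob against HFD. The cause of these shifts was not tested.

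Replicate numbers were not taken to pair the mice. Deviations of same-numbered mice correlated at -0.06, 0.11 and -0.28 between LFD and HFD, at -0.10 and 0.13 between LFD and ob/ob and at 0.59 and 0.30 between HFD and ob/ob mice. Deviations of the 2 ob/ob mice from their mean are mirror images, so HFD replicate 1 correlated at 0.59 with ob/ob replicate 1 and at -0.59 with ob/ob replicate 2. These correlations therefore cannot decide whether the mice were paired. With the replicate block 4 (HFD), 5 (ob/ob), 0 (ob/ob against HFD) and 4 (obese) integrin genes had an unadjusted p under 0.05, where 12.7%, 12.5%, 1.89% and 15.7% of all genes were higher at that p, and none an adjusted p under 0.05. The relative difference of Itga4 between ob/ob and HFD was 0.0531 with the block.

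The group sizes and the unknown depth limit these results.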
